A study of Mus musculus with 4 samples.

Results

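Tumour-infiltrating CD8 T cells were examined for 36 genes of the unfolded protein response and of the Atf4 branch of the integrated stress response, taken by symbol from the 31205 gene symbols that the 4 single-cell RNA-seq libraries share. The genes fall into 14 chaperones and folding enzymes of the endoplasmic reticulum (ER), 4 genes of ER-associated degradation, 4 sensors of the unfolded protein response with Xbp1 counted among them, 6 stress regulators around Atf4, and 8 amino acid genes known as Atf4 targets. All 36 had UMIs in every library. The ER chaperones were set against the Atf4 amino acid genes in barcodes split by Havcr2, which encodes the inhibitory receptor Tim-3, and by Mki67, a marker of cycling cells.

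All tumours arose from MB49 cells, a mouse line of bladder carcinoma. The KO library came from subcutaneous tumours of mice whose CD8 T cells lack Bfar, and the WT library from such tumours in wild-type mice. Both kinds of mice were C57BL/6Slac, aged 10-12 weeks. The promoter that drives the deletion is not named in the labels. The Aged and the Young libraries came from tumours in Rag1-/- hosts aged 8-10 weeks, which lack T and B cells because they cannot rearrange antigen receptor genes. The labels spell the host strain B6.129S7-Rag1tm1Mom/J for Aged and B6.129S7-Rag1tm0Mom/J for Young, and the hosts were taken to be of the same kind. These hosts had received CD8 T cells by vein from donors aged 18 months for Aged, and from donors aged 8 weeks for Young, on the day the tumour cells were injected. Every library held sorted CD45+ CD8+ cells combined from 3 mice, and each group had 1 library. No test between groups is therefore possible, and every interval given here covers counting error only. KO and WT were made with a 3' kit, and Aged and Young with an immune profiling kit, so levels were compared within each pair and not between pairs.

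The ER folds membrane and secreted proteins. When unfolded proteins build up, the sensors Ern1, Atf6 and Eif2ak3 are released from the chaperone Hspa5. Ern1 splices the Xbp1 message, and Xbp1 and Atf6 then raise the transcription of chaperones and of degradation genes. Eif2ak3, like other kinases that respond to lack of amino acids or of haem, phosphorylates the initiation factor eIF2, which slows translation as a whole and raises that of Atf4. Atf4 in turn drives genes for amino acid synthesis and uptake, one-carbon metabolism and tRNA charging. Activated T cells need both arms as they grow and begin to secrete cytokines. The Bfar protein is a ubiquitin ligase that sits in the ER membrane.

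The 2 arms are known for different promoter elements. RefSeq promoter sequences (GRCm38.p6, 250 bases before to 50 bases after the start) were held for 31 of the 36 genes. They were searched on both strands for the ER stress element, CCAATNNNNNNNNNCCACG, for ER stress element II, ATTGGNCCACG, and for the C/EBP-ATF response element that Atf4 binds, TGATGNAAN. The ER stress element was present in 0.119% of the 32851 promoters of the table and in 7 of 12 chaperone promoters, namely those of Hspa5, Hsp90b1, Calr, Canx, Pdia6, Dnajc3 and Creld2. ER stress element II was present in 0.0365% of promoters, among them those of Dnajb11 and Herpud1. The C/EBP-ATF response element was present in 3.95% of promoters, among them those of Herpud1, Trib3, Chac1, Asns and Slc7a11. It was thus found in 2 of 7 promoters of amino acid genes and in 2 of 6 of stress regulators. The promoters of Psat1, Phgdh, Shmt2, Mthfd2 and Slc3a2 held no match to it. A match is a description of the letters and was not tested as a binding site.

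Windows around the ER stress element are shown for 5 chaperones because the members with this element were all chaperones. Capitals mark the element, which appears as its reverse complement in Calr and Creld2. The windows lie at chr2:34772020-34772048 on the plus strand for Hspa5, chr8:84847045-84847123 on the minus strand for Calr, chr12:17266461-17266539 on the plus strand for Pdia6, chr14:118937797-118937875 on the plus strand for Dnajc3 and chr15:88819490-88819568 on the plus strand for Creld2, each printed 5′ to 3′ along its gene.
Hspa5: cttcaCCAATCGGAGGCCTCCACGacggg
Calr: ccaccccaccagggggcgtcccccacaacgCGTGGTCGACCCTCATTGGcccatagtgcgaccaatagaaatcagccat
Pdia6: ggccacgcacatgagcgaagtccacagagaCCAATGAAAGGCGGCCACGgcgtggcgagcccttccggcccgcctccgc
Dnajc3: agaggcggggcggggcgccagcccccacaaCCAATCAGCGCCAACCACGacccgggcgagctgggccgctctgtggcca
Creld2: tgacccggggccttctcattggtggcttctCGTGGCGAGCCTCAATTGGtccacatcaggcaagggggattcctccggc

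Windows of the second kind are shown for the amino acid genes Asns and Slc7a11, and for Herpud1, whose promoter held both kinds of element. Capitals mark the C/EBP-ATF response elements, and in Herpud1 also ER stress element II, which is the second run of capitals. The windows lie at chr8:94386286-94386417 on the plus strand for Herpud1, chr6:7693219-7693237 on the minus strand for Asns and chr3:50443623-50443709 on the minus strand for Slc7a11, again printed 5′ to 3′ along the gene.
Herpud1: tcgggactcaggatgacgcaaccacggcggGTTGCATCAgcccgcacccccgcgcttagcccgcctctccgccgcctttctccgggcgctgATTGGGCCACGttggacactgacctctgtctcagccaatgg
Asns: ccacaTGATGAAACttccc
Slc7a11: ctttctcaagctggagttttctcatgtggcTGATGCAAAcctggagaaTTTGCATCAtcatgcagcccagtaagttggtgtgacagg

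The libraries held 8665 (KO), 9746 (WT), 9048 (Aged) and 11060 (Young) barcodes, with 68017515 to 85401443 UMIs each. Barcodes with at least 1000 UMIs, at least 500 genes, at most 10% mitochondrial UMIs, and at least 1 UMI each of a CD3 gene and a CD8 gene numbered 8153 (KO), 8966 (WT), 8252 (Aged) and 9803 (Young), at medians of 6870, 6341, 5768 and 4510 UMIs. KO and WT shared 20 barcode sequences and Aged and Young shared 145, of which 16 and 114 passed these filters in both libraries. Leaving out the sequences found in more than 1 library gave chaperone medians (log2 ratio) of -0.20 for KO over WT and -0.09 for Aged over Young, the same as with them. The 4 gates, set by at least 1 UMI of Havcr2 and of Mki67, held between 407 and 6872 barcodes. Barcodes with Mki67 were deeper: the median was 8198 to 10551.5 UMIs in Mki67+ Havcr2- barcodes, against 4016.5 to 6270 UMIs in Mki67- Havcr2- barcodes of the 4 libraries. All 5 CD3 and CD8 genes were detected in every gate, which the filter itself ensures in part. Levels are given as CPM, counts per 1e+06 UMIs of the same barcodes, and they carry no correction for transcript length.

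RNA of other cell types was present at levels that differed between libraries and gates. Dendritic cell markers, which include class II antigen-presentation genes, summed to 1248 CPM in Havcr2+ Mki67- barcodes of Aged and to 8652 CPM in those of Young, against 154 and 260 CPM in Havcr2- Mki67- barcodes of Aged and Young. In Mki67+ Havcr2- barcodes, epithelial keratins and Epcam, as markers of the tumour, summed to 122 CPM in KO against 802 CPM in WT, and fibroblast markers to 70.7 CPM in KO against 681 CPM in WT. Mast cell and basophil markers summed to 31.4 to 248 CPM over the gates of KO and to 123 to 749 CPM over those of WT, and to at most 5.02 CPM in Aged and Young. Of the tumour, fibroblast and dendritic lists, 4 to 6 of the 6 tumour markers, 4 to 6 of the 6 fibroblast markers and 6 to 9 of the 9 dendritic markers were detected in each gate, with Krt5 most often at 0. Results were therefore computed again without every barcode with at least 2 UMIs over all lists of other cell types' markers. This removed 15.4 to 54.2% of the barcodes of a gate, and the values are called marker-free here. Besides the lists above, it used markers of CD4 and regulatory T cells, B and plasma cells, monocytes and macrophages, neutrophils, NK cells and endothelium. At the same cut, tumour and fibroblast markers alone removed 0.518 to 8.91% of a gate, and dendritic markers alone 5.69 to 40.8%. Deeper barcodes reach 2 UMIs more readily. Which of the 2 sets is nearer to the T cells' own RNA was not tested.

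Bfar itself was at 22.4 CPM (95% exact Poisson interval 21.3 to 23.5) in KO and at 32.1 CPM (30.9 to 33.4) in WT, a ratio of 0.697. It lies at chr16:13671858-13703612 on the plus strand (GRCm38). The labels do not say which exons were removed, and a 3' tag outside them would still be counted, so this level neither checks nor contradicts the label KO. In the other pair Bfar was at 26.0 CPM in Aged against 22.1 CPM in Young.

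In KO against WT, none of the stress genes differed by 1.5 times or more among the 31 that could be measured, that is, with 20 or more UMIs in the pair together and 10 or more CPM on 1 side. Of all 7415 measured genes, 0.607% were at least 1.5 times higher in KO and 3.09% at least 1.5 times lower. Ratios were below 1 for 24 of the 31 genes, and for 12 of the 14 chaperones, where 63.8% of all measured genes were below 1. Marker-free, 19 of 31 genes (61.3%) were below 1, beside 63.7% of all measured genes. Slc3a2 stood on the other side, 1.35 times higher in KO. The genes below the minimum were Trib3, Sesn2, Chac1, Asns and Slc7a11, at 0.56 to 8.49 CPM in either library.

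Among the chaperones, Hspa5, the main Hsp70-type chaperone of the ER, was at 598 CPM in KO against 621 CPM in WT (ratio 0.964, 95% exact conditional interval 0.951 to 0.977). Calr, a chaperone that binds sugar chains, was at 376 CPM in KO against 383 CPM in WT (ratio 0.981, interval 0.965 to 0.998). Both ratios lay close to 1. The lowest ratio belonged to Pdia6, a disulfide isomerase, at 102 CPM in KO against 147 CPM in WT (ratio 0.695, interval 0.675 to 0.716). The highest belonged to Dnajb9, a co-chaperone of Hspa5, at 64.9 CPM in KO against 59.7 CPM in WT (ratio 1.09). The other 10 chaperones had ratios of 0.794 for Creld2 to 1.05 for Dnajc3. Among them are Canx and Pdia3, which act with Calr on sugar-bearing proteins, the J-protein Dnajb11, and Hyou1, which helps Hspa5 to exchange nucleotides. The median log2 ratio of the 14 was -0.20, on the scale of log2(CPM + 1), beside -0.05 over all measured genes.

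The chaperone median was closer to 0 in marker-free barcodes, at -0.08 beside -0.04 over all measured genes, and 9 of 14 chaperones were then below 1. Pdia6 had a ratio of 0.909 there, closer to 1 than over all barcodes. Hspa5 crossed 1, with a ratio of 1.07, and Dnajc3 moved further above it, to 1.12. The difference was also uneven over gates: Pdia6 was at 137 CPM in KO against 256 CPM in WT in Mki67+ Havcr2- barcodes, but at 76.9 CPM in KO against 98.1 CPM in WT in barcodes with neither gene. The first of these gates is the one in which tumour and fibroblast markers were highest in WT. Sel1l and Phgdh followed the same course there: Sel1l was at 27.9 CPM in KO against 50.3 CPM in WT (ratio 0.556), and Phgdh at 92.4 CPM in KO against 160 CPM in WT (ratio 0.576). Marker-free, the ratios in this gate were 0.908 for Pdia6, 0.959 for Sel1l and 0.674 for Phgdh. The median log2 ratio of the amino acid genes there was -0.28 over the 8 measured and -0.39 over the 6 measured marker-free. Over all 8 with no minimum it was -0.22 marker-free. Of the 6 genes measured marker-free, 4 lay below 1, the lowest being Shmt2 at 0.497, and 2 lay above it.

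The degradation genes were all below 1 over all barcodes in this pair. Herpud1, which recruits the retrotranslocation machinery, was at 41.1 CPM in KO against 44.1 CPM in WT (ratio 0.932, interval 0.886 to 0.980), the highest of the 4. Sel1l, the adaptor of the ubiquitin ligase of that complex, was the lowest, at 29.8 CPM in KO against 35.9 CPM in WT (ratio 0.831). Derl1 and Edem1, a channel component and a lectin that hands on misfolded glycoproteins, had ratios of 0.919 and 0.907. Marker-free, Herpud1 and Sel1l crossed 1, at 1.04 and 1.01, while Derl1 and Edem1 stayed below it at 0.958 and 0.876.

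The sensors lay on either side of 1. Ern1 was at 16.6 CPM in KO against 13.8 CPM in WT (ratio 1.21, interval 1.11 to 1.31), while Eif2ak3 was at 40.6 CPM in KO against 51.4 CPM in WT (ratio 0.790, interval 0.752 to 0.829). Both kept their side of 1 in marker-free barcodes, at 1.29 and 0.785. In the 4 gates Eif2ak3 was lower in KO each time, with ratios of 0.648 to 0.836. Ern1 was furthest apart in barcodes with both Havcr2 and Mki67, at 18.4 CPM in KO against 11.8 CPM in WT (ratio 1.56, interval 1.21 to 2.00). Xbp1 was at 56.0 CPM in KO against 64.0 CPM in WT (ratio 0.876, interval 0.840 to 0.914), and Atf6 had a ratio of 1.16. Gene counts do not show whether Xbp1 was spliced.

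Of the regulators, Atf4 was at 148 CPM in KO against 167 CPM in WT (ratio 0.887, interval 0.864 to 0.910). Ddit3, which encodes the transcription factor Chop, was at 30.8 CPM in KO against 38.1 CPM in WT (ratio 0.809, interval 0.765 to 0.856), and at 0.820 marker-free. Ppp1r15a, the phosphatase subunit that reverses eIF2 phosphorylation, had the highest ratio of the measured 3, 1.03. Messenger levels of Atf4 say little of its protein, which is controlled in translation.

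Among the amino acid genes the pair of subunits of the large neutral amino acid transporter parted. Slc3a2, the heavy chain, was at 605 CPM in KO against 449 CPM in WT (ratio 1.35, interval 1.33 to 1.37), and at 1.34 marker-free. It was higher in KO in all 4 gates, at ratios of 1.23 to 1.42. Slc7a5, the light chain, was at 20.6 CPM in KO against 21.8 CPM in WT (ratio 0.949, interval 0.884 to 1.02), with a log2 ratio of 0.090 marker-free. Slc3a2 also pairs with other light chains, among them Slc7a11.

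Serine synthesis genes were lower in KO. Phgdh, its first enzyme, was at 59.1 CPM in KO against 84.4 CPM in WT (ratio 0.700, interval 0.673 to 0.728), and at 0.833 marker-free. Psat1, the next enzyme, was at 16.4 CPM in KO against 20.9 CPM in WT (ratio 0.785). The mitochondrial one-carbon gene Mthfd2 was at 40.4 CPM in KO against 39.3 CPM in WT (ratio 1.03, interval 0.975 to 1.08), so its interval spans 1. Asns, which makes asparagine, was below the minimum at 7.01 CPM in KO against 8.49 CPM in WT. The 6 measured amino acid genes had a median log2 ratio of -0.13, against -0.20 for the chaperones. Slc7a11, the cystine carrier, had 2.13 CPM in KO against 6.30 CPM in WT, but 3 UMIs in KO and 2 UMIs in WT in marker-free barcodes.

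**Figure D1:**
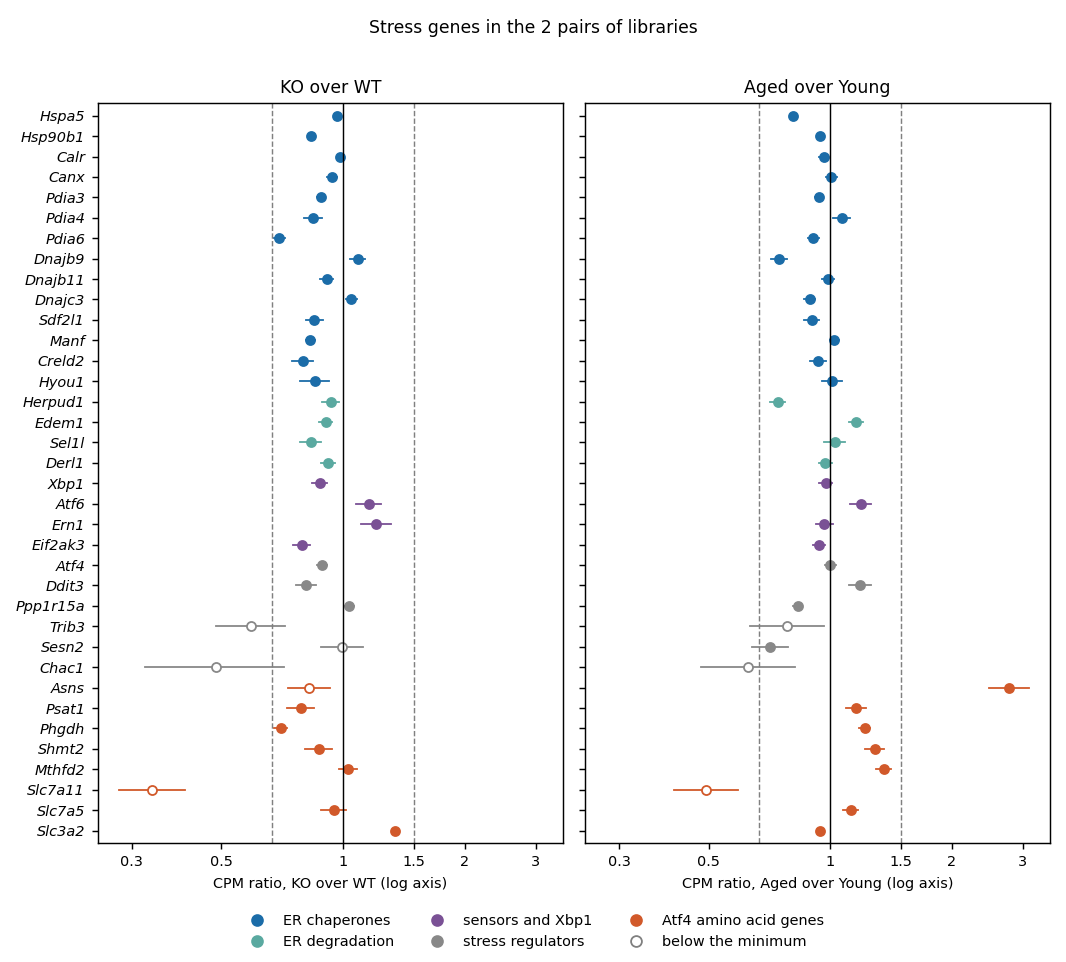
Ratio of CPM for each of the 36 genes on a log axis, KO over WT on the left and Aged over Young on the right, with 95% counting intervals, open symbols for genes below the minimum and dashed lines at 1.5 times either way. In KO over WT the highest measured ratio is that of Slc3a2 at 1.35, and in Aged over Young only Asns, at 2.77, is past the dashed line among measured genes.

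In Aged against Young, over all barcodes, the amino acid genes mostly lay above 1 and the chaperones mostly below it. Asns was 2.77 times higher in Aged and was the 1 gene of 33 measured that reached 1.5 times in either direction, while 2.62% of all 7938 measured genes were at least 1.5 times higher and 3.83% at least 1.5 times lower. Of the 7 measured amino acid genes, 6 had a ratio above 1, with a median log2 ratio of 0.28, where 67.3% of all measured genes were above 1. Asns is among these 6, and it passed the minimum only through Aged, so it had to be higher there. Over all 8 amino acid genes with no minimum, where Slc7a11 lay below 1, the median was 0.24, and also 0.24 marker-free. Gate shares differed: Havcr2+ Mki67+ barcodes were 11.1% of Aged and 5.55% of Young, and Havcr2+ Mki67- barcodes 24.2 and 12.1%. With equal weight of the 4 gates the median of the measured amino acid genes was 0.24. In barcodes with neither gene, 3 of 6 measured lay above 1, with a median of 0.003, beside 62.7% of all measured genes. Of the 14 chaperones, 10 had a ratio below 1, with a median of -0.09, and the median over all measured genes was 0.08. Marker-free, 6 of the 14 chaperones were below 1 and 8 above it, with a median of 0.01, again beside 0.08 over all measured genes.

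Asns (chr6:7675169-7693254, minus strand, GRCm38) was at 18.3 CPM in Aged against 6.61 CPM in Young (ratio 2.77, interval 2.47 to 3.11). It passed the minimum only through Aged. It was higher in Aged in each gate: by 2.92 times in barcodes with both Havcr2 and Mki67, where Young had 12.3 CPM, at 19.98 CPM in Aged against 10.0 CPM in Young in Havcr2+ Mki67- barcodes, at 12.1 CPM in Aged against 7.15 CPM in Young in Havcr2- Mki67+ barcodes, and at 7.76 CPM in Aged against 3.75 CPM in Young in barcodes with neither. The ratio was thus highest where both genes were present, and it was 3.09 over all marker-free barcodes.

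The other amino acid genes were closer between the libraries. Mthfd2 was at 75.3 CPM in Aged against 55.6 CPM in Young (ratio 1.35, interval 1.30 to 1.42), and at 1.44 marker-free. Shmt2, the mitochondrial enzyme that feeds it, was at 49.2 CPM in Aged against 38.2 CPM in Young (ratio 1.29). Phgdh was at 143 CPM in Aged against 118 CPM in Young, and Psat1 at 42.4 CPM in Aged against 36.7 CPM in Young. These 4 lay above 1 over all barcodes, by 1.16 to 1.35 times. In barcodes with neither Havcr2 nor Mki67, Phgdh and Psat1 had ratios of 1.03 and 0.973.

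The transporter subunits lay on either side of 1 in this pair as well. Slc7a5 was at 75.8 CPM in Aged against 67.4 CPM in Young (ratio 1.12, interval 1.08 to 1.17). Slc3a2 was at 423 CPM in Aged against 448 CPM in Young (ratio 0.944, interval 0.929 to 0.960), the lowest of the measured amino acid genes. Slc7a5 depended on the gate, with a ratio of 1.64 where both Havcr2 and Mki67 were present, or 1.51 marker-free, and 0.894 where neither was, or 0.903 marker-free. Slc7a11 was below the minimum, at 2.81 CPM in Aged against 5.71 CPM in Young, and had 2 UMIs in Aged and 2 UMIs in Young in marker-free barcodes.

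**Figure D2:**
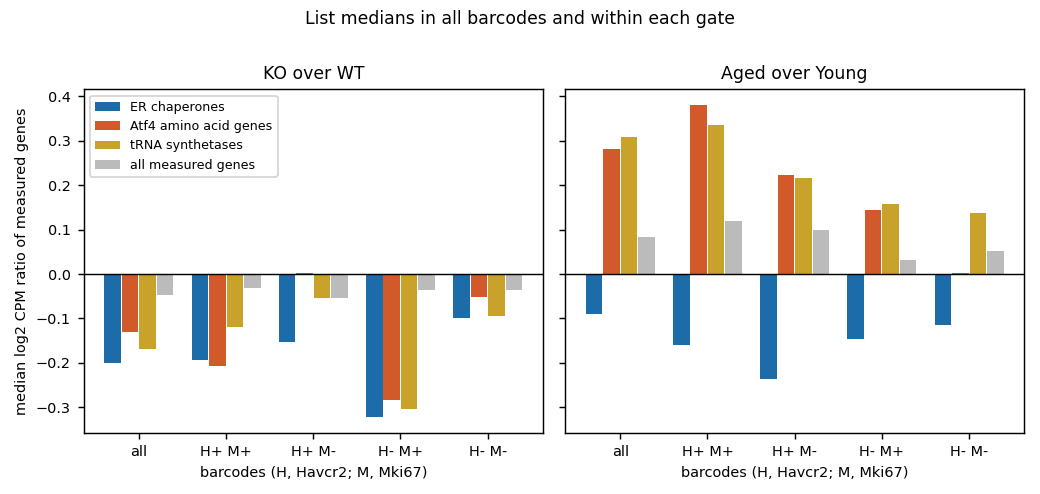
Median log2 ratio of CPM (pseudocount 1) of the measured ER chaperones, Atf4 amino acid genes, tRNA synthetases and all genes in each of the 4 Havcr2 and Mki67 gates, KO over WT on the left and Aged over Young on the right. In Aged over Young the amino acid median is 0.38 in the gate with both genes and 0.003 in the gate with neither, while the chaperone median is below 0 in all 4 gates of both pairs.

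Among the chaperones of this pair, Hspa5 was at 548 CPM in Aged against 676 CPM in Young (ratio 0.811, interval 0.799 to 0.822). Its ratio was 0.787 to 0.845 over the 4 gates and 0.822 marker-free. Dnajb9 had the lowest ratio, at 50.1 CPM in Aged against 67.2 CPM in Young, 0.745 (0.711 to 0.780), and Pdia4, a disulfide isomerase, had the highest at 1.07. Calr was at 179 CPM in Aged against 185 CPM in Young (ratio 0.963, interval 0.939 to 0.989). The other 10 chaperones had ratios of 0.890 for Dnajc3 to 1.02 for Manf.

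Split by gate, the chaperone ratios were below 1 for 13 of 14 in barcodes with both Havcr2 and Mki67, 13 in Havcr2+ Mki67- barcodes, 14 in Havcr2- Mki67+ barcodes and 12 in barcodes with neither. Of all measured genes, 33.4, 35.0, 42.8 and 37.3% were below 1 in these gates. The chaperone medians by gate were -0.16, -0.24, -0.15 and -0.11 in that order. Marker-free, the medians by gate were -0.012, -0.091, -0.098 and -0.056 in the same order, with 7, 9, 13 and 11 of the 14 below 1. Pooled over all marker-free barcodes, 6 of 14 chaperones were below 1 and the median was 0.01. Over all measured genes 32.0% were then below 1 and the median was 0.08. Hspa5 and Dnajb9, at 0.822 and 0.756, then still lay below 1. Pdia6 moved across 1, with ratios of 0.907 over all barcodes and 1.09 marker-free.

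Herpud1 had the lowest ratio of the degradation genes, at 52.0 CPM in Aged against 70.3 CPM in Young, 0.740 (0.707 to 0.775), and 0.867 marker-free. Where Havcr2 was present without Mki67 it was at 52.6 CPM in Aged against 91.7 CPM in Young (ratio 0.573, or 0.886 marker-free), and dendritic markers in that gate were at the 1248 CPM in Aged against 8652 CPM in Young given above. Edem1 had the highest ratio, 82.9 CPM in Aged against 71.6 CPM in Young, 1.16 (1.11 to 1.21). Sel1l and Derl1 had ratios of 1.02 and 0.972.

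Of the sensors and regulators, Atf4, Xbp1 and Ern1 lay close to 1 in this pair, while Ddit3 was higher in Aged and Ppp1r15a lower. Xbp1 was at 86.4 CPM in Aged against 88.7 CPM in Young (ratio 0.974, interval 0.938 to 1.01), and Ern1 had a ratio of 0.967. Atf6 was the highest of the sensors at 1.19 and Eif2ak3 the lowest at 0.938. Atf4 was at 115 CPM in both Aged and Young, a ratio of 1.00 (0.969 to 1.03). The intervals of Xbp1 and Atf4 spanned 1. Ddit3 was at 34.5 CPM in Aged against 29.2 CPM in Young (ratio 1.18, interval 1.11 to 1.26). Its ratio was 1.76 in Havcr2+ Mki67- barcodes, where it was 1.49 marker-free, and 0.924 in Havcr2- Mki67+ barcodes. Sesn2, which restrains the growth kinase complex mTORC1 when leucine is short, passed the minimum only through Young and had the lowest ratio of the regulators, at 9.93 CPM in Aged against 14.0 CPM in Young, 0.711 (0.640 to 0.788). In barcodes with both Havcr2 and Mki67 its ratio was 0.560, but 0.992 marker-free. Ppp1r15a had a ratio of 0.830. Trib3 and Chac1 were below the minimum, at 1.47 to 3.34 CPM.

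Genes around these pathways were read from further lists. A list of 19 genes, made of aminoacyl-tRNA synthetases and the tRNA exporter Xpot, was measured in full in both pairs. Many of these genes are known Atf4 targets. In Aged over Young 19 of 19 had a ratio above 1, from 1.04 for Nars to 1.54 for Aars, the alanyl-tRNA synthetase, which was at 57.9 CPM in Aged against 37.7 CPM in Young. Their median log2 ratio was 0.31 over all barcodes and 0.36 marker-free, and over the 4 gates it ran from 0.14 where neither Havcr2 nor Mki67 was present to 0.34 where both were. In KO over WT 3 of 19 were above 1, from 0.737 for Wars to 1.05 for Nars, with a median of -0.17 over all barcodes. Marker-free, the KO over WT median was -0.05 with 5 of 17 measured genes above 1, beside -0.04 over all measured genes. Of all measured genes, 67.3% had a ratio above 1 in Aged over Young and 36.2% in KO over WT, with medians of 0.08 and -0.05.

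Other ER folding genes had a median log2 ratio of -0.02 in Aged over Young, or 0.12 marker-free, from 0.828 for Dnajc10 to 1.21 for Prkcsh, and of -0.14 in KO over WT, from 0.640 for Dnajc10 to 0.998 for Txndc11. All 14 that were measured lay below 1 in KO over WT, beside 63.8% of all measured genes. Of these 14, 1 passed the minimum only through WT and so had to lie below 1. In marker-free barcodes 4 of 13 lay above 1, beside 36.3% of all measured genes. Other degradation genes had medians of 0.01 in Aged over Young and -0.04 in KO over WT, and genes of protein entry into the ER had -0.01 in Aged over Young and -0.07 in KO over WT. Of 17 amino acid genes beyond the 8, 9 were measured in Aged over Young and 7 in KO over WT. In Aged over Young 6 of 9 had a ratio above 1, up to 1.48 for Shmt1, near the share of 67.3% over all measured genes. In KO over WT 5 of 7 were above 1, up to 1.28 for the arginine and lysine carrier Slc7a1, beside 36.2% of all measured genes. The KO over WT median was 0.08 over these 7, but -0.06 over all 17 with no minimum.

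Within each library, barcodes with Mki67 had more RNA of most chaperones and of nearly every amino acid gene than barcodes without it. The following values are from Havcr2- barcodes, Mki67+ over Mki67-. At least 1.5 times higher were 10 of 32 measured stress genes in KO, 17 of 34 in WT, 10 of 33 in Aged and 10 of 32 in Young. Over all measured genes that share was 12.4% (KO), 19.6% (WT), 13.3% (Aged) and 15.3% (Young). At least 1.5 times lower was Eif2ak3 in KO and no gene of the 36 in the other libraries, where the shares over all genes were 1.74% (KO), 4.37% (WT), 3.95% (Aged) and 3.74% (Young). Some of these genes passed the minimum only through Mki67+ barcodes and so had to be higher there: Sesn2 and Psat1 in KO, Sesn2, Asns and Slc7a11 in WT, and Sesn2 and Asns in Aged. Both gates come from the same library, so the 4 libraries repeat the comparison but the barcodes do not.

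The median of the amino acid genes was higher than that of the chaperones in all 4 libraries. Their median log2 ratio was 0.82 (KO), 1.08 (WT), 0.67 (Aged) and 0.84 (Young), over 6 to 8 measured genes, which include the genes just named. Over all 8 amino acid genes with no minimum it was 0.95 (KO), 1.08 (WT), 0.91 (Aged) and 0.92 (Young), and 0.40 (KO), 0.72 (WT), 0.55 (Aged) and 0.45 (Young) marker-free. The chaperone median was 0.40 (KO), 0.56 (WT), 0.33 (Aged) and 0.44 (Young), or 0.32 (KO), 0.26 (WT), 0.29 (Aged) and 0.38 (Young) marker-free, and the median over all genes was 0.01 to 0.07. Over measured genes, the amino acid median exceeded the chaperone median by 0.42 (KO), 0.52 (WT), 0.34 (Aged) and 0.40 (Young), and by 0.33 to 0.72 in marker-free barcodes. These differences depend on the minimum. With no minimum on the amino acid genes, their marker-free medians of 0.40 in KO and 0.45 in Young lay nearer to the chaperone medians of 0.32 in KO and 0.38 in Young. Markers of other cells were higher with Mki67 as well. Those of the tumour summed to 122 CPM in Mki67+ and 63.7 CPM in Mki67- barcodes of KO, 802 and 201 CPM in WT, 203 and 13.9 CPM in Aged, and 589 and 90.1 CPM in Young. Dendritic markers summed to 440 CPM in Mki67+ and 69.4 CPM in Mki67- barcodes of KO, 227 and 110 CPM in WT, 280 and 154 CPM in Aged, and 513 and 260 CPM in Young. The part of these markers and of the greater depth of Mki67+ barcodes in the result was not tested beyond the marker-free and thinned values.

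Psat1 (chr19:15904678-15947337, minus strand) had the highest amino acid ratio in KO, Aged and Young. It was at 32.9 CPM in Mki67+ and 9.80 CPM in Mki67- barcodes of KO, 40.5 and 12.9 CPM in WT, 53.0 and 21.2 CPM in Aged, and 58.3 and 21.8 CPM in Young. The Mki67+ value was the higher in each library, with ratios of 2.50 to 3.36 and of 2.26 to 2.84 marker-free. In KO its log2 ratio was 1.65, but 0.61 without the 8% of barcodes with the most UMIs. Phgdh (chr3:98313170-98339990, minus strand) was at 92.4 CPM in Mki67+ and 43.9 CPM in Mki67- barcodes of KO, 160 and 56.2 CPM in WT, 196 and 86.8 CPM in Aged, and 177 and 84.6 CPM in Young. It too was higher with Mki67 in each library, with ratios of 2.09 to 2.86 and, marker-free, of 1.68 to 2.30. Mthfd2 had ratios of 2.19 to 2.36, Shmt2 of 1.54 to 1.91 and Slc7a5 of 1.25 to 1.60. Marker-free, Shmt2 had a ratio of 1.01 in KO, while in WT, Aged and Young it stayed at 1.45 to 1.80.

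Slc3a2 (chr19:8706882-8723369, minus strand) was the exception among the measured amino acid genes. It was at 530 CPM in Mki67+ and 658 CPM in Mki67- barcodes of KO, 375 and 476 CPM in WT, 353 and 500 CPM in Aged, and 375 and 511 CPM in Young. Its level was lower with Mki67 in 4 of 4 libraries, at ratios of 0.706 to 0.806, and at 0.754 to 0.876 marker-free. The same held among Havcr2+ barcodes, with ratios of 0.677 to 0.752, where Psat1 had 2.34 to 2.77. The heavy chain and its light chain Slc7a5 thus lay on opposite sides of 1 in every library.

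**Figure D3:**
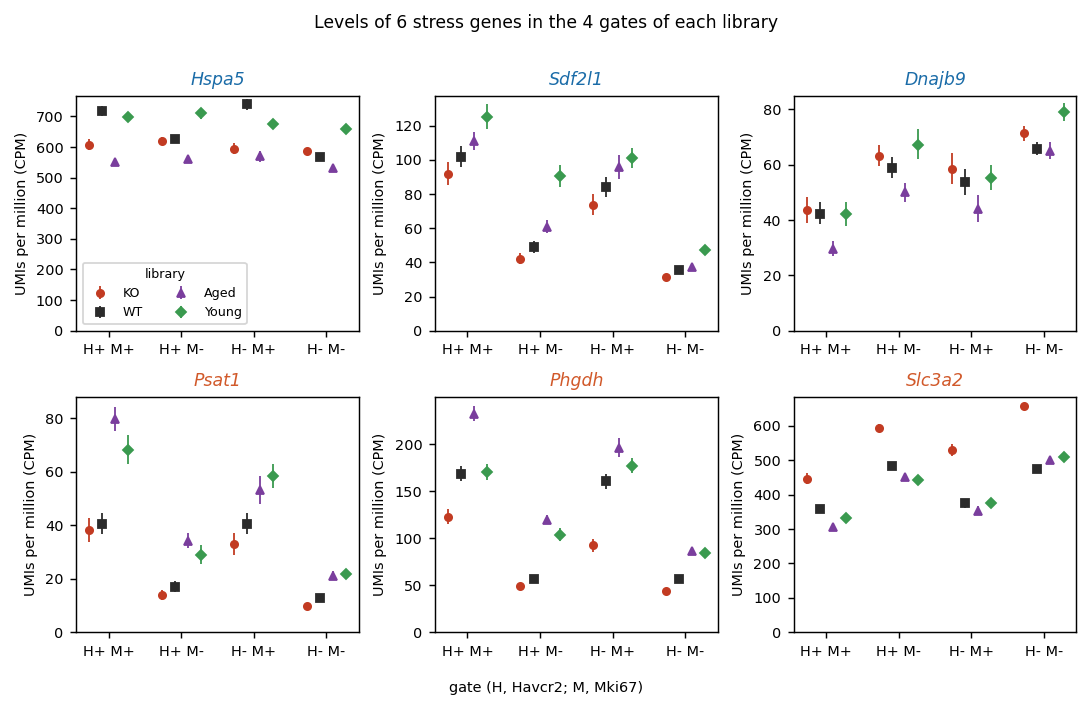
CPM with exact 95% Poisson intervals of Hspa5, Sdf2l1, Dnajb9, Psat1, Phgdh and Slc3a2 in the 4 gates of each of the 4 libraries. Psat1 and Phgdh are higher in both Mki67+ gates than in the matching Mki67- gates of each library, Slc3a2 and Dnajb9 are lower, and Hspa5 stays between 533 and 739 CPM throughout.

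Sdf2l1 (chr16:17130138-17132383, minus strand), a partner of the ER-resident J-proteins, led the chaperones in KO, Aged and Young. It was at 73.5 CPM in Mki67+ and 31.2 CPM in Mki67- barcodes of KO, 84.0 and 35.4 CPM in WT, 95.8 and 37.0 CPM in Aged, and 101 and 47.4 CPM in Young. The ratios of 2.13 to 2.59 were 2.01 to 2.65 marker-free. In WT Pdia6 was higher still, at 256 CPM in Mki67+ and 98.1 CPM in Mki67- barcodes, a ratio of 2.61, but it had 1.38 marker-free. Creld2, an ER stress-induced protein with a role in disulfide chemistry, had ratios of 1.73 to 2.31, Manf, a small Hspa5-binding protein, of 1.66 to 1.91, and Hsp90b1, the ER member of the Hsp90 family, of 1.54 to 1.96. Canx, Pdia3, Pdia4, Dnajb11 and Hyou1 had ratios of 1.16 for Hyou1 to 1.76 for Pdia4, above 1 in every library. In all, 12 of 14 chaperones had ratios above 1 in 4 of 4 libraries, and 10 did so in marker-free barcodes. The same count over all measured genes was not made.

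Hspa5 was nearly level between these gates in KO, Aged and Young, and Dnajb9 was lower with Mki67. Hspa5 had ratios of 1.01 (KO), 1.30 (WT), 1.07 (Aged) and 1.02 (Young), and of 0.925 to 0.993 marker-free. Dnajb9 (chr12:44205559-44210326, minus strand) was at 58.4 CPM in Mki67+ and 71.4 CPM in Mki67- barcodes of KO, 53.7 and 65.8 CPM in WT, 44.0 and 65.0 CPM in Aged, and 55.3 and 79.0 CPM in Young. It was lower with Mki67 in every library, at ratios of 0.677 to 0.818, and was the lowest chaperone in each. Among Havcr2+ barcodes its ratios were 0.590 to 0.719. Dnajc3, which encodes another co-chaperone, had ratios of 0.931 to 1.17.

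Of the degradation genes Herpud1 had ratios of 1.24 to 1.61 and Edem1 of 1.13 to 1.31, above 1 in 4 of 4 libraries, while Derl1 ran from 0.941 to 1.09. Sel1l had a ratio of 1.67 in WT and of 0.803 to 1.00 in KO, Aged and Young, and marker-free it was below 1 in all 4 libraries, at 0.761 to 0.947. The sensors were mostly level or lower with Mki67. Eif2ak3 was at 25.7 CPM in Mki67+ and 44.3 CPM in Mki67- barcodes of KO, 39.6 and 52.9 CPM in WT, 81.6 and 104 CPM in Aged, and 88.4 and 116 CPM in Young. Its ratios were 0.580 to 0.784, those of Xbp1 0.852 to 0.966, those of Ern1 0.911 to 1.15 and those of Atf6 0.899 to 1.09. Atf4 messenger had ratios of 1.10 to 1.34, Ddit3 of 0.739 to 1.02, Ppp1r15a of 0.748 to 0.858 and Sesn2 of 1.01 to 1.88. Marker-free, Sesn2 was measured in Young alone, at a ratio of 0.986. Over all barcodes none of these 4 reached the ratios of Psat1, Phgdh or Mthfd2. Trib3 and Chac1 were below the minimum in this contrast.

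Asns passed the minimum in WT, with a ratio of 2.12, and in Aged, with 1.56. Slc7a11 passed it in WT alone, at 17.9 CPM in Mki67+ and 2.12 CPM in Mki67- barcodes, a ratio of 8.48 (6.51 to 11.1). This was the highest measured amino acid ratio of any library. In that same Mki67+ gate of WT the tumour and fibroblast markers were at 802 and 681 CPM, and without marker-bearing barcodes the gene had 2 UMIs in the whole WT library.

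**Figure D4:**
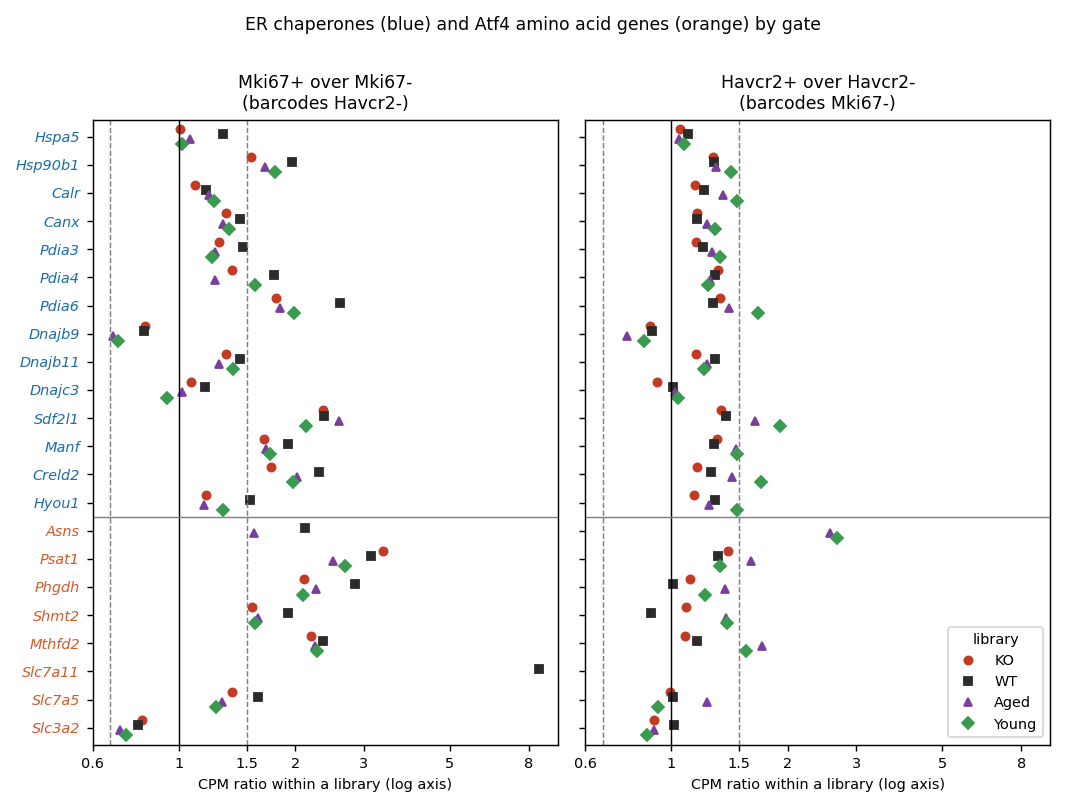
CPM ratios of the 14 chaperones and 8 amino acid genes in each of the 4 libraries on a log axis, Mki67+ over Mki67- among Havcr2- barcodes on the left and Havcr2+ over Havcr2- among Mki67- barcodes on the right. With Mki67 the amino acid genes Psat1, Phgdh and Mthfd2 lie above 2 in each library and Slc3a2 and Dnajb9 below 1. With Havcr2 these genes lie closer to 1, while some others, such as Asns in Aged, lie further from it.

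With Havcr2 the amino acid medians were lower than with Mki67 in each library. The chaperone medians were lower in KO and WT, and slightly higher in Aged and Young. In Aged and Young that order depended on the setting. Thinned to 2000 UMIs, the chaperone median was 0.11 with Havcr2 and 0.16 with Mki67 in Aged. In Young it was then 0.23 with Havcr2 and 0.27 with Mki67. The amino acid genes did not differ more than the chaperones in every library. The values that follow are from Mki67- barcodes, Havcr2+ over Havcr2-. The chaperone median log2 ratio was 0.21 (KO), 0.34 (WT), 0.34 (Aged) and 0.46 (Young), against 0.00 to 0.07 over all genes. The amino acid median was 0.12 (KO), 0.02 (WT), 0.46 (Aged) and 0.40 (Young), and it exceeded the chaperone median in 1 of 4 libraries, Aged, and marker-free in 2 of 4, with differences of -0.10 (KO), -0.18 (WT), 0.26 (Aged) and 0.025 (Young). Psat1 in KO and Asns in Aged and Young entered these medians only through Havcr2+ barcodes. Dendritic markers were higher with Havcr2, at 395 CPM in Havcr2+ against 69.4 CPM in Havcr2- barcodes of KO and at 309 CPM against 110 CPM in WT, beside the values of Aged and Young given above. Their part in the result was not tested beyond the marker-free values.

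Few of the genes reached 1.5 times. None of 31 measured did so in KO and none of 31 in WT, where 4.7% of all genes in KO and 4.44% in WT were at least 1.5 times higher with Havcr2. In Aged 4 of 33 did, namely Sdf2l1, Asns, Psat1 and Mthfd2, beside 6.19% of all genes. In Young 6 of 33 did, namely Sdf2l1, Pdia6, Creld2, Herpud1, Asns and Mthfd2, beside 8.02% of all genes. No gene of the 36 was at least 1.5 times lower, where the shares over all genes were 1.22% (KO), 1.54% (WT), 1.84% (Aged) and 2.34% (Young).

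Differences of most chaperones ran the same way in each library. Ratios were above 1 for 12 of 14 chaperones in 4 of 4 libraries, also in marker-free barcodes. How many of all measured genes lay above 1 in 4 of 4 libraries was not counted. Sdf2l1 was the highest chaperone each time, at 42.1 CPM in Havcr2+ and 31.2 CPM in Havcr2- barcodes of KO, 49.1 and 35.4 CPM in WT, 60.8 and 37.0 CPM in Aged, and 90.5 and 47.4 CPM in Young. Its ratios of 1.35, 1.39, 1.64 and 1.91 were 1.24, 1.25, 1.51 and 1.41 marker-free. Manf had ratios of 1.29 to 1.48, Hsp90b1 of 1.29 to 1.42 and Calr of 1.16 to 1.48. Hspa5 lay between 1.05 and 1.11. Canx, Pdia3, Pdia4, Dnajb11 and Hyou1 had ratios of 1.14 to 1.48.

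Dnajb9 was again the lowest chaperone in each library. It was at 63.1 CPM in Havcr2+ and 71.4 CPM in Havcr2- barcodes of KO, 58.9 and 65.8 CPM in WT, 49.97 and 65.0 CPM in Aged, and 67.2 and 79.0 CPM in Young. The ratios of 0.768 to 0.894 were 0.824 to 0.894 marker-free. It therefore lay below 1 in both contrasts in all 4 libraries, and over all barcodes no other chaperone did.

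Among the amino acid genes Psat1 was the highest in KO and WT, with ratios of 1.40 in KO and 1.32 in WT, and it had 1.61 in Aged and 1.34 in Young. In Aged and Young Asns was the highest, at 19.98 CPM in Havcr2+ and 7.76 CPM in Havcr2- barcodes of Aged and 10.0 and 3.75 CPM in Young. Its ratios were 2.58 (2.15 to 3.09) in Aged and 2.67 (2.01 to 3.54) in Young, and 2.64 and 2.59 marker-free. It passed the minimum only through Havcr2+ barcodes, and marker-free it fell below the minimum in Young, so these ratios are given as a description. In KO and WT it was below the minimum, at 7.71 and 4.70 CPM in KO and 6.88 and 5.37 CPM in WT. Mthfd2 had ratios of 1.72 in Aged and 1.56 in Young, which were 1.66 in Aged and 1.20 in Young marker-free. The lowest amino acid genes were Slc3a2 in KO, Aged and Young, at 0.903, 0.902 and 0.865, and Shmt2 in WT, at 0.890.

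Herpud1 in Young was at 91.7 CPM in Havcr2+ and 54.0 CPM in Havcr2- barcodes, a ratio of 1.70, and 0.963 marker-free. In KO, WT and Aged its ratios were 1.17, 1.08 and 1.20. Creld2 and Pdia6 in Young, at 1.71 and 1.67, were 1.24 and 1.42 marker-free. All 3 genes were thus nearer to 1 without those barcodes. Havcr2+ barcodes of Young are those with the dendritic markers at 8652 CPM. Ddit3 was lower with Havcr2 in Young, at 22.1 CPM in Havcr2+ and 33.0 CPM in Havcr2- barcodes, a ratio of 0.671, while in KO, WT and Aged its ratios were 1.02, 1.16 and 1.00. Ern1 had ratios of 1.33 (KO), 1.34 (WT), 1.15 (Aged) and 0.942 (Young), Xbp1 of 1.06 to 1.16 and Atf6 of 1.07 to 1.39. Atf4 had ratios of 1.04 to 1.10, and Ppp1r15a, at 0.821 to 0.990, was below 1 in each library.

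**Figure D5:**
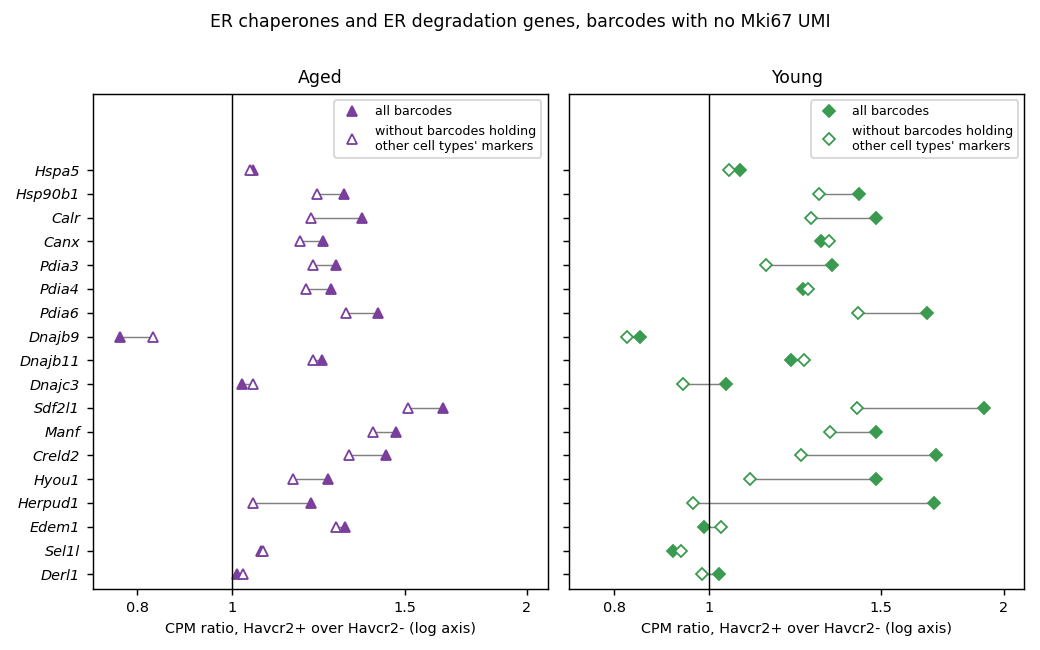
CPM ratio of Havcr2+ over Havcr2- among Mki67- barcodes for the chaperones and degradation genes in Aged and in Young on a log axis, over all barcodes and over marker-free barcodes. In Young Herpud1 moves from 1.70 to 0.963 once barcodes with other cell types' markers are left out, whereas in Aged it moves from 1.20 to 1.05.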

How the data were processed

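Droplet single-cell RNA-seq libraries of sorted tumour CD8 T cells were used, 1 library per group. The authors deposited UMI counts per gene and barcode, which per the file headers were written by Cell Ranger 6.1.1 for KO and WT and 7.1.0 for Aged and Young. Per the submitters' processing notes, the build was mm10 and the tools included Seurat 3.2.3 and Cell Ranger 6.0.0. Filters and gates are those given with the depths. Rows were matched by symbol, and the 2 rows of Ddit3 were summed, the second of which held no UMI. UMIs were summed over the barcodes of a gate and divided by their total to give CPM. Levels carry exact Poisson intervals and ratios exact conditional binomial intervals, at 95%. These cover counting error only. log2 ratios used a pseudocount of 1 CPM. Since 1 library per group allows no test, no p-value is given, and genes past 1.5 times were counted. The script was tested on simulated counts with known changes. No doublet caller was run. As alternatives, the 8% of barcodes with the most UMIs, marker-bearing barcodes, barcodes shared between libraries or barcodes with Trbv12-1 were left out, barcodes were thinned to 2000 UMIs, and scaling, pseudocount, filter, weighting and the CD3 and CD8 minimum were changed. The genes, lists and gates were chosen with earlier results of these data known. In both pairs the text gives a fixed set of 10 genes, the highest and lowest ratio of each list and every gene past 1.5 times, and in gate contrasts the highest and lowest chaperone and amino acid gene, and other members were added after their values were seen. Promoter sequences are from RefSeq and gene coordinates from GENCODE, both on GRCm38. Counts were handled with Python 3.11.15, numpy 2.4.6, scipy 1.17.1 and pandas 2.3.3.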

Additional observations from a re-analysis of the deposited data

Results flagged for a closer look

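Slc7a5, the light chain of the large neutral amino acid transporter, lay on opposite sides of 1 in 2 gates of the same pair. Its CPM ratio of Aged over Young was 1.64 in barcodes with both Havcr2 and Mki67 (107.9 CPM in Aged against 65.7 CPM in Young) and 0.894 in barcodes with neither (58.1 CPM in Aged against 65.0 CPM in Young). The difference between the gates was not tested, since each side rests on 1 library. In the first gate dendritic markers were at 1517 CPM in Aged against 11914 CPM in Young. In marker-free barcodes the ratio was 1.51 in the first gate and 0.903 in the second.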

How the results depend on the processing

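No paired analysis was possible because each group has 1 library, so no replicate numbers pair the groups, and for the same reason none was left out in turn. The gate contrasts are paired within each library, and their 4 values are given side by side with no p-value, since the genes were chosen with earlier results known. Of the list medians and counts under all alternatives, 232 stayed within the spread allowed and 64 moved beyond it, where a change of sign within the spread counts as staying. The values that moved follow as median log2 ratios, with chaperones (C) before amino acid genes (A). The cause was not tested.

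For KO over WT, C was -0.11 as a mean over barcodes, -0.12 with median-of-ratios scaling, -0.089 thinned to 2000 UMIs, -0.064 without the 8% deepest barcodes, -0.079 marker-free, -0.12 without dendritic and -0.086 without tumour or fibroblast markers. For Aged over Young, C was -0.17 with equal gates, -0.14 with median-of-ratios scaling, -0.15 without Trbv12-1, 0.017 without dendritic markers, 0.0083 marker-free and -0.012 without tumour or fibroblast markers. A was 0.24 with equal gates, 0.21 as a mean over barcodes, 0.23 with median-of-ratios scaling, 0.24 without Trbv12-1, 0.35 without tumour or fibroblast markers and 0.23 without the deepest barcodes. Without a filter on low counts, 3 genes were at least 1.5 times lower in KO over WT and 2 in Aged over Young, where thinning gave 1. In single genes of KO over WT, Hspa5 was at 0.098 and Herpud1 at 0.055 marker-free, both above 0.

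For Mki67+ over Mki67-, thinning gave C of 0.24 (KO), 0.37 (WT), 0.16 (Aged) and 0.27 (Young), and A of 0.76 in WT and 0.46 in Young. Without the deepest barcodes, C was 0.21 (KO), 0.25 (WT), 0.21 (Aged) and 0.30 (Young), and A was 0.48 in KO, 0.57 in WT and 0.58 in Young. As a mean over barcodes, C was 0.34 in WT and 0.34 in Young, and A was 0.54 in KO and 0.87 in WT. In WT, C was 0.45 with median-of-ratios scaling, 0.30 without dendritic markers, 0.26 marker-free and 0.24 without tumour or fibroblast markers, where A was 0.89. In KO, A was 0.65 without dendritic markers, 0.61 without tumour or fibroblast markers and 0.62 with at least 2 UMIs of CD3 and of CD8 genes. The log2 ratio of Pdia6 in WT was 0.43 without the deepest barcodes. The log2 ratio of Slc7a11 in WT reversed, to -0.11 thinned and -0.045 marker-free.

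For Havcr2+ over Havcr2-, thinning gave C of 0.12 in WT, 0.11 in Aged and 0.23 in Young, and A of 0.30 in Aged, 0.0053 in Young and, below 0, -0.027 in KO. There Slc3a2 in Aged was at 0.14, above 0, and Asns in Young at 0.59. Without the deepest barcodes, C was 0.14 in KO, 0.16 in Aged and 0.26 in Young, and A was 0.35 in Aged and 0.14 in Young. As a mean over barcodes, C was 0.23 in Aged and 0.31 in Young. With median-of-ratios scaling, C was 0.13 in KO and 0.25 in Aged, and A was 0.37 in Aged and, below 0, -0.057 in WT. In Young, C was 0.31 without dendritic markers and 0.32 marker-free. The sets without dendritic, without tumour or fibroblast markers and without barcodes shared between libraries were chosen after seeing the data, and the last moved no median or count. Thinning left out 45 (KO), 80 (WT), 201 (Aged) and 611 (Young) shallower barcodes. Genes at a few CPM, such as Trib3, Chac1 and Slc7a11, are limited by depth.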
